A study of Mus musculus with 18 samples.

Results

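The genes described here are 10 transcription factors of keratinocyte differentiation, namely Trp63, Klf4, Klf5, Grhl1, Grhl3, Ovol1, Zfp750, Gata3, Prdm1 and Cebpa, taken by symbol, with no threshold on a measured value, from a list drawn up with earlier results of these data known. Each of the 10 was present once among the 23951 genes measured and passed the filter on low values. RNA was sequenced from 18 libraries of sorted ear skin cells, 1 for each of 3 mice in 6 groups, 7 days after tamoxifen (4 daily injections of 2 mg in mice of 8 weeks, males and females). Bulge hair follicle stem cells (HF-SCs) were sorted as CD45- CD49f high CD34+ cells and basal keratinocytes (b-KCs) as CD45- CD49f high CD34- cells, so that b-KCs came from the basal layer without being separated from other follicle cells that lack CD34. DKO* mice carried floxed JunB and c-Jun alleles and a Cre-ERT transgene under the K5 promoter, and develop a psoriasis-like disease after induction. Controls (Co) carried Cre under the same promoter with wild-type or heterozygous JunB and c-Jun. All mice carried the mT/mG reporter, in which Cre activity replaces membrane Tomato by membrane GFP, so the GFP fraction of a DKO* mouse marks mutant cells and the Tom fraction non-mutant cells of the same animal. The labels give no GFP or Tomato sort for the controls. Control libraries came from mice 810, 825 and 828, and all 4 DKO* populations from mice 814, 815 and 817, which means that GFP and Tom are compared with the same control libraries.

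Stratified epidermis renews from a basal layer whose cells stop dividing and pass through spinous and granular layers to the cornified surface. Trp63 encodes p63, the master factor of the basal epithelial state, while Klf4, Grhl1, Grhl3, Ovol1, Zfp750, Gata3, Prdm1 and Cebpa act largely in the steps that follow, from cell cycle exit to barrier and cornified envelope genes. c-Jun and JunB are subunits of AP-1, a factor that binds many promoters and enhancers of differentiation genes. Bulge HF-SCs normally rest in the follicle and do not differentiate into epidermis unless the skin is injured or inflamed.

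Promoter sequences give context for part of the 10 genes, since none was available for Trp63, Klf5, Ovol1 and Zfp750. Klf5, Ovol1 and Zfp750 are among the genes that rose in mutant bulge cells. RefSeq promoter windows (GRCm38.p6), the 250 bases before a transcription start, were found for 6 of the 10 genes, Gata3, Klf4, Grhl3, Cebpa, Prdm1 and Grhl1, the last with 2 starts. Letters of 4 motifs were searched on both strands: TGANTCA (AP-1), AACNGGTT (Grainyhead, the family of Grhl1 and Grhl3), TTGCNNAA (C/EBP, the family of Cebpa) and CCNCNCCC (KLF, the family of Klf4 and Klf5). The windows shown are those of 3 genes that rose in mutant HF-SCs, Grhl3 (chr4:135573633-135573882, minus strand), Cebpa (chr7:35119043-35119292, plus strand) and Prdm1 (chr10:44458749-44458998, minus strand), and of Klf4 (chr4:55532476-55532725, minus strand), which fell. Capitals mark the matched letters, and neighbouring KLF matches overlap.
Grhl3: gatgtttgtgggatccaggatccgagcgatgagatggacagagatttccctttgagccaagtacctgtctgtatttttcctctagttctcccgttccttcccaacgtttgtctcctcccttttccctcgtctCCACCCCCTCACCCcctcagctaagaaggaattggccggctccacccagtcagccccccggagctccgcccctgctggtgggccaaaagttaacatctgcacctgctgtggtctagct
Cebpa: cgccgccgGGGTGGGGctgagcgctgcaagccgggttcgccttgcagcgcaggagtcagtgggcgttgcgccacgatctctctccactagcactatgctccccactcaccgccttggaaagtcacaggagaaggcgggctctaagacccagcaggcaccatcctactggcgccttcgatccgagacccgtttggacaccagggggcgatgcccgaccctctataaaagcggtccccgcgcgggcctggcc
Prdm1: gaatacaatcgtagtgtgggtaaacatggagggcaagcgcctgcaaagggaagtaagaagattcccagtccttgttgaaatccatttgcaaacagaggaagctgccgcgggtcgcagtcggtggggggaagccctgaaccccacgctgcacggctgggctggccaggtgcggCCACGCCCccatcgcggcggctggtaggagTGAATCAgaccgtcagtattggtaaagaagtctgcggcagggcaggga
Klf4: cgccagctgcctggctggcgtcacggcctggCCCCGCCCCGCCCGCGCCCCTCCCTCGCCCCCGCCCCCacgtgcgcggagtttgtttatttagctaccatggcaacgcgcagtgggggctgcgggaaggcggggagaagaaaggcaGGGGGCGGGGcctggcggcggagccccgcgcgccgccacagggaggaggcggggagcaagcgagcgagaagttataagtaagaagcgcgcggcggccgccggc

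Among the 6 genes with a window, only Prdm1 held an AP-1 match, TGAATCA. It begins at -48 counted from the start site and is not one of the most common AP-1 forms, TGACTCA or TGAGTCA. Of all 32851 windows of this length, 6.75% held an AP-1 match. KLF letters were found in 6 of the 7 windows, against 45.9% of all windows, and Klf4 had 9 such matches. The windows with KLF letters held 56% to 75.6% GC, 74% in Klf4, and the window without them held 52%. The median of all windows was 52.4% GC. Whether the KLF count follows base composition was not tested. No Grainyhead or C/EBP letters were found in the 7 windows, and 1.79% and 9.56% of all windows held them. A match is a description of these letters and not of binding.

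Cd34, the surface marker of the bulge sort, read 639.8 to 889 FPKM in HF-SC Co, 161 to 228 in HF-SC GFP and 259.6 to 319 in HF-SC Tom, against at most 2.53 in any b-KC library, where FPKM is the number of fragments per kilobase of transcript, scaled to sequencing depth, and so compares genes per unit of length. Jun lay between 29.6 and 88.4 FPKM in the 6 GFP libraries, between 163 and 614 in Tom and between 835 and 1086 in Co, and Junb between 37.2 and 77.5 in GFP, 208 and 402 in Tom, and 436 and 772 in Co. Levels were tested with limma on log2(FPKM + 1) over all 18 libraries, with Benjamini-Hochberg adjustment over 12751 genes within each comparison, and a gene passed at an adjusted p under 0.05. Differences below are on this log2 scale, which understates the change of genes near or below 1 FPKM. Mouse 817 stood apart among the DKO* mice. Among the 10 genes it was often nearest to Co in the GFP fractions, but in HF-SC Tom it was the farthest from Co for Klf5, Grhl1, Grhl3, Ovol1, Zfp750, Prdm1 and Cebpa, so counts are also given without it. Krt14 and Krt15, markers of the basal layer and the bulge, were listed at exactly 0 in 3 and 1 libraries of groups whose other libraries held them at high levels, but no value of the 10 genes was 0.

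In control mice, the follicle and basal populations differed in 7 of the 10 factors, all lower in HF-SCs, and 51.9% of all genes tested passed this comparison (27.3% lower). The median difference of the 10 genes, HF-SC Co minus b-KC Co, was -2.23 and that of all genes -0.06. Ovol1, Zfp750 and Grhl3 were lowest in HF-SCs relative to b-KCs, at 10.2-fold, 10.3-fold and 10.3-fold lower mean FPKM, followed by Cebpa at 7.52-fold, Grhl1 at 5.48-fold, Klf5 at 4.20-fold and Gata3 at 3.56-fold. For these 7 genes each HF-SC library lay below each b-KC library, as it did for 37.4% of all genes, and the largest adjusted p was 9.82e-06 (limma, Gata3). Trp63, Klf4 and Prdm1 did not pass. Control HF-SCs and b-KCs held 333 ± 7.56 and 269.7 ± 37.0 FPKM of Trp63 (SD, n = 3), 165 ± 18.5 and 178 ± 11.9 of Klf4, and 2.53 ± 0.4998 and 1.497 ± 0.0881 of Prdm1. The interval of the Klf4 difference ran from -0.71 to 0.48 on the log2 scale. Prdm1 was higher in HF-SCs in each of the 3 control mice. Its difference of 0.49 passed with the mouse as a fixed block (adjusted p = 0.00944, limma) but not as a random block (adjusted p = 0.182, limma). It also passed without mouse 817, whose libraries are in neither group but enter the shared spread (adjusted p = 0.00403, limma).

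The order of levels differed between the cell types too. In HF-SC Co the order was Trp63, Klf4, Klf5, Gata3, Ovol1, Grhl1, Zfp750, Cebpa, Grhl3 and Prdm1. Neighbours overlapped between libraries for Ovol1 and Grhl1, for Zfp750 and Cebpa and for Grhl3 and Prdm1. In b-KC Co it was Trp63, Klf5, Ovol1, Klf4, Gata3, Grhl1, Zfp750, Cebpa, Grhl3 and Prdm1, where Trp63 and Klf5, Ovol1 and Klf4, Gata3 and Grhl1, and Cebpa and Grhl3 overlapped. Ovol1 thus had 18.9 ± 3.93 FPKM in HF-SC Co, well below Klf4, and 193 ± 21.9 in b-KC Co, level with it.

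**Figure D1:**
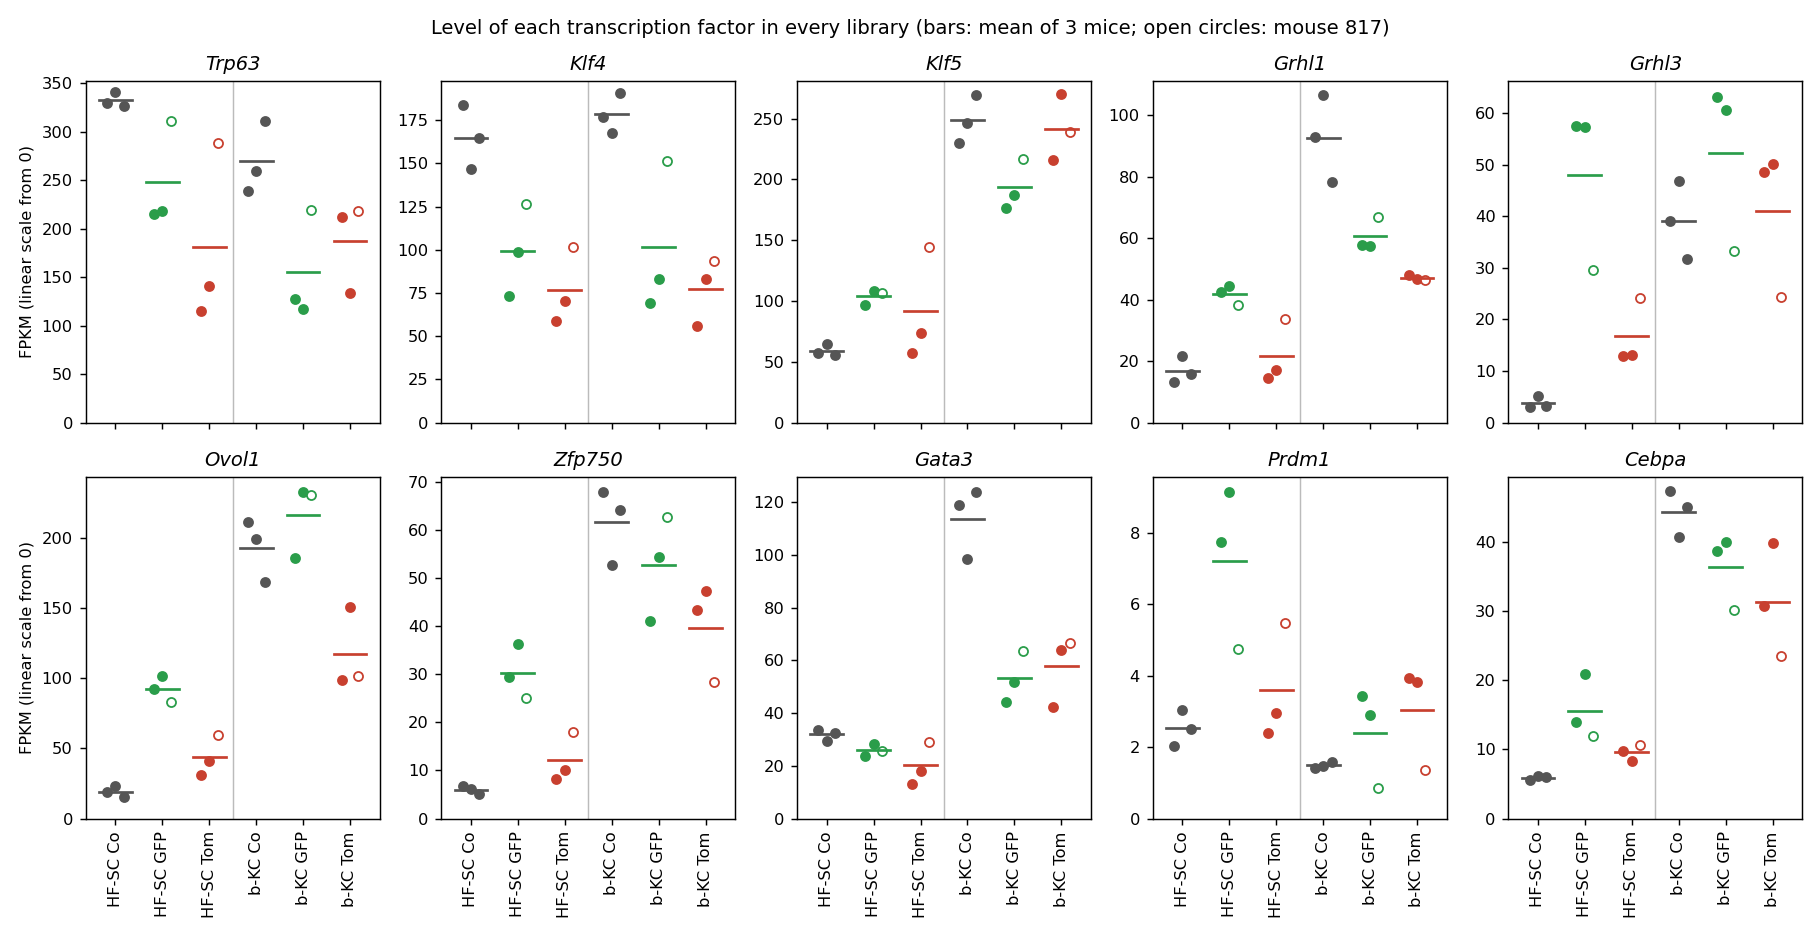
FPKM of each of the 10 transcription factors on a linear axis from 0, in every library of the 6 groups; points are mice, bars are means of 3 mice and open circles are mouse 817. Grhl3, Ovol1 and Zfp750 are near the axis in HF-SC Co, at means of 3.81, 18.9 and 5.97 FPKM, and clearly above it in HF-SC GFP, at 48.1, 92.4 and 30.3.

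Mutant bulge cells had more of most differentiation factors than control bulge cells. In HF-SC GFP against HF-SC Co, 8 of the 10 genes passed, 7 of them higher and 1 lower, and 38.5% of all genes tested passed (18.5% higher, and 2545 genes lower). Without mouse 817, 9 of the 10 passed, 7 higher and 2 lower, where 51.5% of all genes did, and the count was 5 without mouse 815, where 25.8% of all genes passed. In non-mutant HF-SC Tom, 7 of the 10 passed, 4 higher and 3 lower, against 44.4% of all genes (22.3% higher and 22.1% lower), and the count was 4 without control mouse 828, where 33.3% of all genes passed. In b-KCs the genes that passed were lower than in Co. In b-KC GFP 3 of the 10 passed, all lower, against 41.6% of all genes (21.3% lower), a smaller share than that of all genes. In b-KC Tom 6 passed, all lower, against 45.9% of all genes (23.3% lower), and the count was 3 without mouse 810, where 39.3% of all genes passed. Without mouse 817 it was 7 in HF-SC Tom, 4 higher and 3 lower, and 7 in b-KC Tom, 1 higher and 6 lower, where 59.4% and 57.6% of all genes passed. The median difference of the 10 genes was 1.21 in mutant and 0.43 in non-mutant HF-SCs, and -0.33 in mutant and -0.60 in non-mutant b-KCs, where the medians of all genes lay between -0.05 and -0.02. The b-KC GFP count was 7 without mouse 817, with 2 higher and 5 lower, and 1 when mouse 810, 814, 815 or 828 was left out. All genes moved in the same way, with 59.4% passing without mouse 817 and 20.5% to 34.0% in the other fits. In sorted bulk cells, fewer cells of a type and less RNA per cell cannot be told apart.

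**Figure D2:**
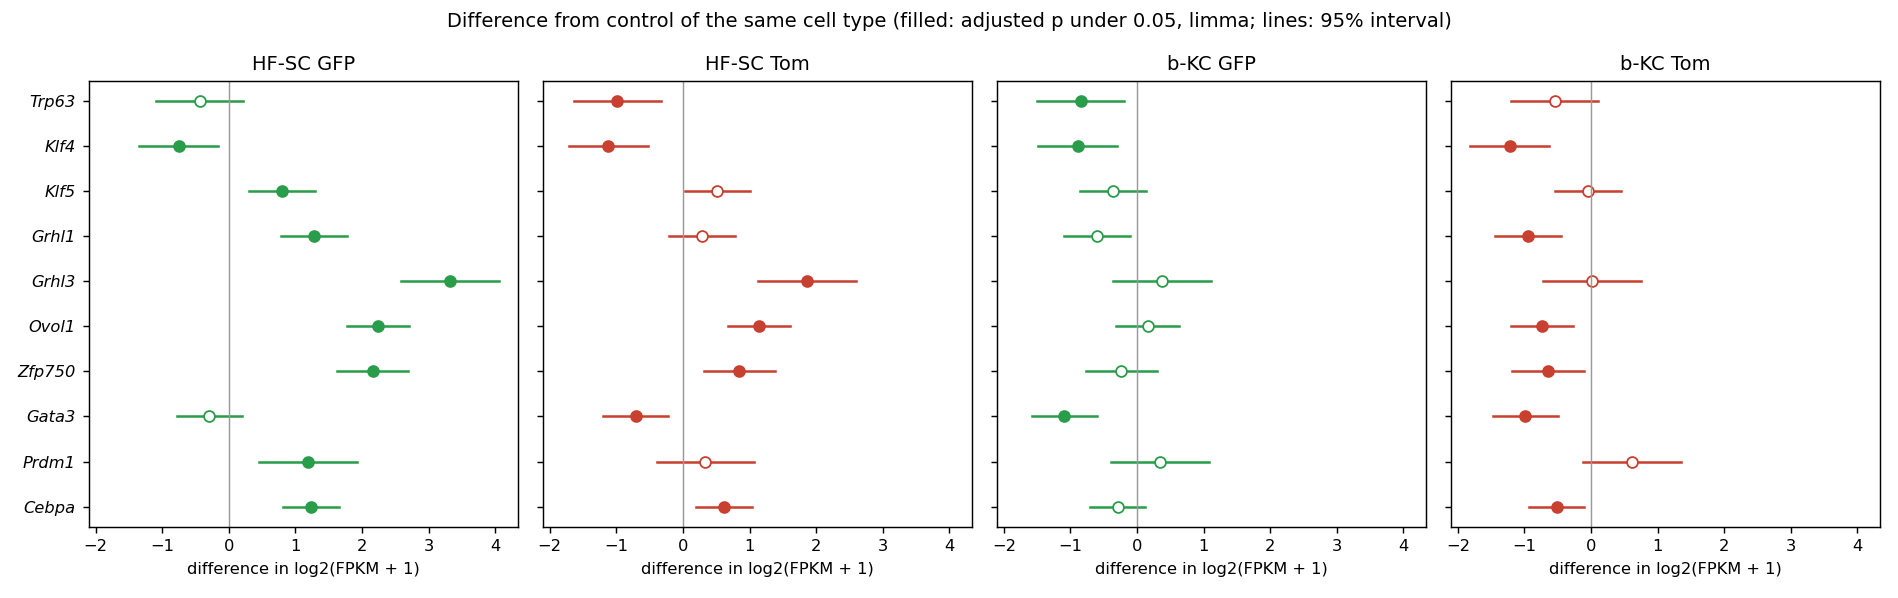
Difference of each transcription factor from Co of the same cell type in the 4 DKO* populations, as log2(FPKM + 1) with 95% intervals from limma; filled points have an adjusted p under 0.05. Grhl3, Ovol1 and Zfp750 lie right of 0 in both HF-SC panels (3.32, 2.24 and 2.16 in GFP; 1.86, 1.14 and 0.85 in Tom), and Klf4 lies left of 0 in all 4.

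Trp63 (chromosome 16, 25683849 to 25892188, plus strand, NCBIM37), the factor of the basal state, was the most abundant of the 10 in all HF-SC groups and was lower in DKO* mice in several populations. In HF-SCs it read 329, 341 and 327 FPKM (Co), 216, 219 and 311 (GFP) and 115, 141 and 288 (Tom), in the order of the mice given above. Every DKO* library lay below every HF-SC Co library, and mouse 817 was the highest of both fractions. The difference was -0.44 ± 0.31 (SE) in GFP (adjusted p = 0.275, limma) and -0.99 ± 0.31 in Tom (adjusted p = 0.0166, limma). Without mouse 817 the difference in GFP was -0.61 (adjusted p = 0.0124, limma), and the call in Tom was lost without mouse 814, 815 or 825. The b-KC libraries read 239, 259.6 and 311 FPKM (Co), 128, 117 and 219 (GFP) and 212, 134 and 218 (Tom). Again no DKO* library reached the lowest Co library. The difference passed in GFP, at -0.84 ± 0.31 (adjusted p = 0.0377, limma), and not in Tom, at -0.54 ± 0.31 (adjusted p = 0.157, limma). The GFP call was lost when any of mice 810, 814, 815, 825 and 828 was left out, with adjusted p = 0.0649 to 0.181 (limma) over those fits. The Tom difference passed without mouse 817, at -0.67 (adjusted p = 0.00652, limma). FPKM here is 1 value per gene, so the long (TA) and short (delta-N) forms of p63, made from separate promoters, were not distinguished.

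Klf4 (chromosome 4, 55540013 to 55545347, minus strand), a zinc finger factor needed for the skin barrier, fell in all 4 DKO* populations and is the gene among the 10 that passed in each of them. Its HF-SC libraries read 184, 147 and 165 FPKM (Co), 73.5, 98.5 and 127 (GFP) and 58.8, 70.6 and 102 (Tom). Those of b-KCs read 177, 167 and 191 FPKM (Co), 69.4, 83.2 and 151 (GFP) and 56.1, 83.0 and 93.4 (Tom). All DKO* libraries lay below all Co libraries of their cell type, and mouse 817 was the highest in each fraction. Mean FPKM was 1.66-fold lower in HF-SC GFP, 2.14-fold in HF-SC Tom, 1.76-fold in b-KC GFP and 2.30-fold in b-KC Tom. The Tom differences, -1.12 ± 0.28 and -1.22 ± 0.28 (adjusted p = 0.00437 and 0.00240, limma), passed with each mouse left out. The GFP differences did not, being -0.75 ± 0.28 in HF-SCs (adjusted p = 0.0435, limma), which was lost without any mouse but 817, and -0.89 ± 0.28 in b-KCs (adjusted p = 0.0190, limma), which was lost without mouse 810, 814, 815 or 828. Over those fits the adjusted p was at most 0.140 in HF-SCs and 0.135 in b-KCs (limma).

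Klf5 (chromosome 14, 99697910 to 99712624, plus strand) is a relative of Klf4 found in proliferating basal keratinocytes. It rose in mutant bulge cells and did not pass against Co in the other DKO* populations. Control bulge cells read 57.6, 64.5 and 55.5 FPKM and mutant ones 96.8, 108 and 107, which do not overlap. The difference was 0.80 ± 0.23 (adjusted p = 0.0125, limma), a 1.76-fold higher mean, and was lost without mouse 815 or 828 (adjusted p = 0.0743 and 0.0571, limma). Non-mutant bulge cells read 57.6, 73.7 and 145 FPKM, with mouse 814 within the Co range, mouse 815 above it and mouse 817 the highest. The difference of 0.52 ± 0.23 did not pass (adjusted p = 0.0829, limma), though it did without mouse 814 (0.79, adjusted p = 0.0172, limma). The b-KC values of Klf5 were higher throughout, at 229.7, 247 and 269 FPKM (Co), 176, 187 and 217 (GFP) and 216, 270.2 and 239 (Tom). Tom overlapped Co, while GFP lay below it with a difference of -0.36 ± 0.23 (adjusted p = 0.221, limma) that passed only without mouse 817 (-0.45, adjusted p = 0.0167, limma).

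The Grainyhead-like factors Grhl1 and Grhl3 bind promoters of cell adhesion and cornified envelope genes, and Grhl3 is required for barrier formation and wound closure. Grhl3 (chromosome 4, 135097803 to 135129545, minus strand) had the largest change of the 10 genes in HF-SCs. Bulge libraries read 2.93, 5.24 and 3.25 FPKM (Co), 57.6, 57.3 and 29.5 (GFP) and 13.0, 13.1 and 24.3 (Tom). Every GFP library lay above every Tom library and every Tom library above every Co library, with mouse 817 the lowest in GFP and the highest in Tom. Mean FPKM was 12.6-fold higher in GFP (3.32 ± 0.34, adjusted p = 2.8e-06, limma) and 4.41-fold higher in Tom (1.86 ± 0.34, adjusted p = 0.000466, limma), and both passed with each mouse left out. The HF-SC GFP mean of 48.1 ± 16.1 FPKM was 123% of the b-KC Co mean. Basal libraries read 39.1, 46.8 and 31.7 FPKM (Co), 63.2, 60.5 and 33.3 (GFP) and 48.7, 50.1 and 24.4 (Tom). All 3 groups overlapped through mouse 817, the lowest of each DKO* fraction. Neither difference passed, at 0.37 ± 0.34 in GFP (adjusted p = 0.402, limma) and 0.01 ± 0.34 in Tom (adjusted p = 0.980, limma, interval -0.72 to 0.75). Without mouse 817, the GFP difference was 0.66 and passed (adjusted p = 0.00687, limma). The sign of the Tom difference was negative after libraries were rescaled, after quantile normalization and without mouse 814, 815 or 828.

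Grhl1 (chromosome 12, 25257152 to 25302256, plus strand), which regulates desmosomal cadherins, rose in mutant bulge cells and fell in non-mutant basal cells. In HF-SCs it read 13.2, 21.7 and 15.7 FPKM (Co), 42.6, 44.6 and 38.4 (GFP) and 14.5, 17.2 and 33.6 (Tom). GFP lay above both other groups, whereas Tom overlapped Co and was raised in mouse 817 alone. The difference was 1.29 ± 0.23 in GFP (adjusted p = 0.000486, limma) and 0.29 ± 0.23 in Tom (adjusted p = 0.342, limma), the latter at -0.06 without mouse 817. In b-KCs it read 92.9, 106 and 78.3 FPKM (Co), 57.9, 57.4 and 66.8 (GFP) and 47.9, 46.7 and 46.4 (Tom). The 3 groups did not overlap. The Tom difference, -0.95 ± 0.23 (adjusted p = 0.00389, limma), passed with each mouse left out. The GFP difference of -0.59 ± 0.23 did not pass (adjusted p = 0.0523, limma), and did without mouse 817 (-0.66, adjusted p = 0.00514, limma).

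Ovol1 and Zfp750 act between the basal state and terminal differentiation. Ovol1 (chromosome 19, 5549137 to 5560575, minus strand) is a repressor that helps progenitors leave the cell cycle, and Zfp750 (chromosome 11, 121372292 to 121380647, minus strand) is a p63 target that promotes late differentiation genes. For Ovol1, HF-SC libraries read 18.95, 22.9 and 15.0 FPKM (Co), 92.6, 102 and 82.9 (GFP) and 31.0, 41.2 and 59.8 (Tom). For Zfp750 they read 6.72, 6.17 and 5.01 FPKM (Co), 29.4, 36.2 and 25.1 (GFP) and 8.18, 10.2 and 17.997 (Tom). For both genes the 3 groups followed one another without overlap, Co lowest and GFP highest. In GFP, mean FPKM was 4.88-fold higher for Ovol1 (2.24 ± 0.22, adjusted p = 1.64e-06, limma) and 5.07-fold for Zfp750 (2.16 ± 0.25, adjusted p = 8.70e-06, limma). In Tom it was 2.32-fold higher for Ovol1 (1.14 ± 0.22, adjusted p = 0.000663, limma) and 2.03-fold for Zfp750 (0.85 ± 0.25, adjusted p = 0.0128, limma). Of these only the Zfp750 call in Tom was lost with a mouse left out, without 828 (0.75, adjusted p = 0.0682, limma).

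In b-KCs neither factor passed in GFP, and both fell in Tom. Ovol1 read 211, 199 and 169 FPKM (Co), 186, 233 and 230.3 (GFP) and 99.0, 151 and 101 (Tom). GFP overlapped Co at 0.16 ± 0.22 (adjusted p = 0.583, limma, with a negative sign after quantile normalization), while Tom lay below it at -0.74 ± 0.22 (adjusted p = 0.0131, limma), a call lost without mouse 810 (adjusted p = 0.0579, limma). The difference between the fractions themselves is given with the other comparisons within mice. Zfp750 read 67.9, 52.7 and 64.2 FPKM (Co), 41.1, 54.4 and 62.7 (GFP) and 43.3, 47.4 and 28.4 (Tom). GFP again overlapped Co (-0.23 ± 0.25, adjusted p = 0.477, limma), and Tom lay below it (-0.65 ± 0.25, adjusted p = 0.0464, limma). The Zfp750 call in Tom was lost without mouse 810, 815, 825 or 828 (adjusted p = 0.0618 to 0.139, limma) and when a random block for the mouse was fitted (adjusted p = 0.0652, limma).

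Gata3 (chromosome 2, 9778705 to 9811661, minus strand), a factor of hair follicle inner root sheath and of epidermal barrier lipids that is also known from T cells, fell in both b-KC fractions. These cells read 119, 98.4 and 124 FPKM (Co), 44.4, 52.0 and 63.4 (GFP) and 42.5, 64.1 and 66.6 (Tom). Both fractions lay well below Co and overlapped each other. Mean FPKM was 2.14-fold lower in GFP (-1.09 ± 0.23, adjusted p = 0.00183, limma) and 1.97-fold lower in Tom (-0.99 ± 0.23, adjusted p = 0.00269, limma), and both passed with each mouse left out. Bulge cells read 33.8, 29.6 and 32.6 FPKM (Co), 23.8, 28.5 and 25.6 (GFP) and 13.3, 17.9 and 29.2 (Tom). All DKO* libraries were below Co, and mouse 817 was the highest of Tom. The difference was -0.29 ± 0.23 in GFP (adjusted p = 0.332, limma) and -0.71 ± 0.23 in Tom (adjusted p = 0.0203, limma), the latter lost without mouse 810, 814, 815 or 828 (adjusted p = 0.0663 to 0.104, limma). T cell and innate lymphoid genes, 11 of them in the table, summed to 12.4 to 17.0 FPKM in b-KC Co, 11.0 to 23.9 in its GFP and 10.0 to 43.4 in its Tom counterpart, with Cd3d, Cd3e and Cd3g at no more than 0.282 FPKM in any library. Their part in the Gata3 values was not tested.

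Prdm1 (chromosome 10, 44156983 to 44248307, minus strand) encodes Blimp1, a transcriptional repressor that acts at the late granular step and in sebaceous progenitors. It was the least abundant of the 10 genes in every group, from 0.850 to 9.15 FPKM, and its lowest library corresponds to about 95.5 reads on its longest transcript. Its bulge values were 2.03, 3.03 and 2.52 FPKM (Co), 7.74, 9.15 and 4.75 (GFP) and 2.40, 2.94 and 5.47 (Tom). GFP lay above Co and Tom overlapped it, mouse 817 being lowest in one fraction and highest in the other. The difference was 1.19 ± 0.34 in GFP (adjusted p = 0.0125, limma), a 2.86-fold higher mean, lost without mouse 810 or 815 (adjusted p = 0.0593 and 0.0878, limma), and 0.34 ± 0.34 in Tom (adjusted p = 0.448, limma). Its basal values were 1.42, 1.49 and 1.59 FPKM (Co), 3.44, 2.91 and 0.850 (GFP) and 3.94, 3.83 and 1.37 (Tom). Mice 814 and 815 were above every Co library in both fractions and mouse 817 below. Neither difference passed with all mice (0.35 ± 0.34 in GFP and 0.62 ± 0.34 in Tom, adjusted p = 0.434 and 0.153, limma). Without mouse 817 both did, at 0.74 (adjusted p = 0.000591, limma) and 0.97 (adjusted p = 7.16e-05, limma).

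Cebpa (chromosome 7, 35904312 to 35906945, plus strand) is a leucine zipper factor of post-mitotic keratinocytes and of lipid-producing cells. It rose in both bulge fractions and, in b-KCs, passed as lower only in Tom. Bulge libraries held 5.51, 6.21 and 5.99 FPKM (Co), 13.9, 21.0 and 12.0 (GFP) and 9.84, 8.30 and 10.7 (Tom). The groups did not overlap. The difference was 1.23 ± 0.20 in GFP (adjusted p = 0.000167, limma), which passed with each mouse left out, and 0.61 ± 0.20 in Tom (adjusted p = 0.0194, limma), which was lost without mouse 810, 814 or 828 (adjusted p = 0.0587 to 0.0821, limma). Basal libraries held 47.3, 40.8 and 45.2 FPKM (Co), 38.8, 40.0 and 30.2 (GFP) and 30.8, 39.8 and 23.5 (Tom). All DKO* libraries were below Co by a small margin in mouse 815 and by more in mouse 817. The difference was -0.29 ± 0.20 in GFP (adjusted p = 0.249, limma) and -0.52 ± 0.20 in Tom (adjusted p = 0.0420, limma), the latter lost when any mouse but 815 was left out (adjusted p = 0.0698 to 0.124, limma).

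Whether a change from Co differed between the cell types was tested directly by interaction terms. The change in GFP was more positive in HF-SCs than in b-KCs for 6 of the 10 genes, and 12.5% of all genes passed in either direction (7.31% more positive in HF-SCs). The difference of changes was 2.95 ± 0.49 for Grhl3 (adjusted p = 0.00110, limma), 2.39 ± 0.36 for Zfp750 (adjusted p = 0.000534, limma), 2.08 ± 0.31 for Ovol1 (adjusted p = 0.000571, limma), 1.88 ± 0.33 for Grhl1 (adjusted p = 0.00172, limma), 1.52 ± 0.28 for Cebpa (adjusted p = 0.00226, limma) and 1.17 ± 0.33 for Klf5 (adjusted p = 0.0290, limma). Only the Klf5 call was lost with a mouse left out, without 810, 815, 825 or 828 (adjusted p = 0.0732 to 0.188, limma). Gata3, at 0.80 ± 0.32 (adjusted p = 0.121, limma), passed when a random block for the mouse was fitted (adjusted p = 0.0320, limma) and without mouse 817. Trp63 and Klf4 did not pass, with intervals from -0.52 to 1.33 and from -0.70 to 0.98, which leave room for differences in either direction. Prdm1, at 0.84 ± 0.49 (adjusted p = 0.274, limma), passed without mouse 817 (0.69, adjusted p = 0.0200, limma).

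The change in Tom also differed between the cell types, for 5 of the 10 genes against 15.8% of all genes (10.3% more positive in HF-SCs). They were Ovol1 at 1.88 ± 0.31 (adjusted p = 0.000748, limma), Grhl3 at 1.85 ± 0.49 (adjusted p = 0.0172, limma), Zfp750 at 1.495 ± 0.36 (adjusted p = 0.00927, limma), Grhl1 at 1.24 ± 0.33 (adjusted p = 0.0181, limma) and Cebpa at 1.13 ± 0.28 (adjusted p = 0.0112, limma). All 5 were more positive in HF-SCs. Prdm1, at -0.28 ± 0.49 (adjusted p = 0.763, limma), passed without mouse 817 in the opposite direction (-0.90, adjusted p = 0.00412, limma). The control libraries are those of the GFP comparison. Only Ovol1 passed with each mouse left out, and the count was 2 without control mouse 810 or 828, where 1189 and 1147 of the 12751 genes passed. Quantile normalization changed the split of all genes in this comparison from 1307 more positive and 712 more negative in HF-SCs to 1229 and 1352.

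**Figure D3:**
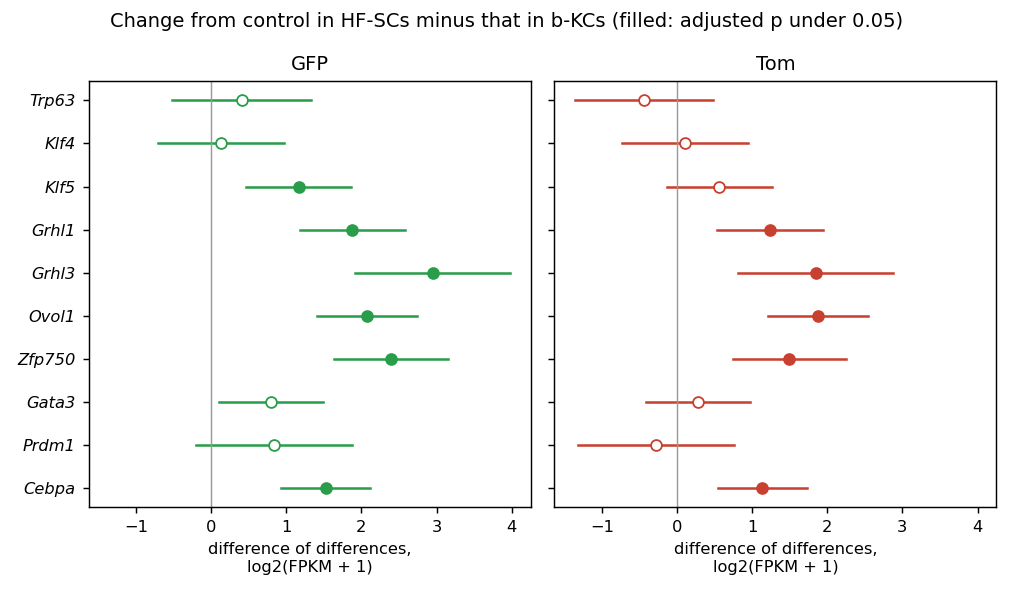
Change from Co in HF-SCs minus change from Co in b-KCs for each transcription factor, in log2(FPKM + 1) with 95% intervals, for GFP and Tom; filled points have an adjusted p under 0.05 (limma). Filled points are Klf5, Grhl1, Grhl3, Ovol1, Zfp750 and Cebpa for GFP and Grhl1, Grhl3, Ovol1, Zfp750 and Cebpa for Tom, all to the right of 0.

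Mutant and non-mutant cells of the same mice were then compared. In HF-SCs all 10 genes had a positive mean difference, GFP minus Tom, with a median of 0.74 where that of all genes was 0.02. Zfp750 (1.31 ± 0.25, adjusted p = 0.00263, limma), Ovol1 (1.10 ± 0.22, adjusted p = 0.00386, limma), Grhl1 (1.00 ± 0.23, adjusted p = 0.0114, limma) and Grhl3 (1.46 ± 0.34, adjusted p = 0.0123, limma) passed, which is 4 of the 10, all higher in GFP, against 8.63% of all genes (2.83% higher). For these 4 and Cebpa (0.62 ± 0.20, adjusted p = 0.0669, limma) every GFP library lay above every Tom library, as it did for 8.41% of all genes. The size of the difference depended on the mouse. In mice 814 and 815 all 10 genes were higher in GFP, with medians of 1.13 and 1.26, while in mouse 817 the median was 0.17 and 7 of the 10 were higher. Grhl3 differed by 2.07 in mouse 814, 2.05 in mouse 815 and 0.27 in mouse 817, and Zfp750 by 1.73, 1.74 and 0.46. Klf5, Gata3 and Prdm1 were lower in GFP in mouse 817, by -0.43, -0.18 and -0.17. Without mouse 817 all genes but Klf4 passed, 9 of the 10, and without mouse 814 or 815 none of the 10 did. The share of all genes that passed was 22.9% without mouse 817, 3.82% without 814 and 3.33% without 815. With the mouse as a fixed block in the 2 fractions alone no gene passed, the smallest adjusted p being 0.0647 for Ovol1 (limma), where 4.93% of all genes did. Under a random block over all libraries 5 passed, Cebpa being the one added (adjusted p = 0.0225, limma), against 13.6% of all genes.

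In b-KCs none of the 10 genes passed between GFP and Tom (limma), 1 had an unadjusted p under 0.05, and 1.71% of all genes passed. That gene was Ovol1, higher in GFP in each of the 3 mice by 0.62 to 1.18, with a mean of 0.90 ± 0.22 (adjusted p = 0.0526, limma). It passed with the mouse as a random block (adjusted p = 0.0111, limma) and as a fixed block (adjusted p = 0.0380, limma). Grhl1 and Grhl3 were also higher in GFP in all 3 mice, by 0.27 to 0.51 and 0.27 to 0.44, as were Klf4 by 0.0041 to 0.69 and Cebpa by 0.0073 to 0.35, and Klf5 and Prdm1 lower in all 3, by differences from -0.53 to -0.14 and from -0.35 to -0.15. None of these passed with or without the mouse as a block. Without it the intervals were -0.14 to 0.85 for Grhl1 and -0.81 to 0.18 for Klf5. With the mouse as a fixed block the standard errors were smaller, and Grhl1 and Grhl3 stood at 0.36 ± 0.12 each (adjusted p = 0.177 and 0.161, limma).

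**Figure D4:**
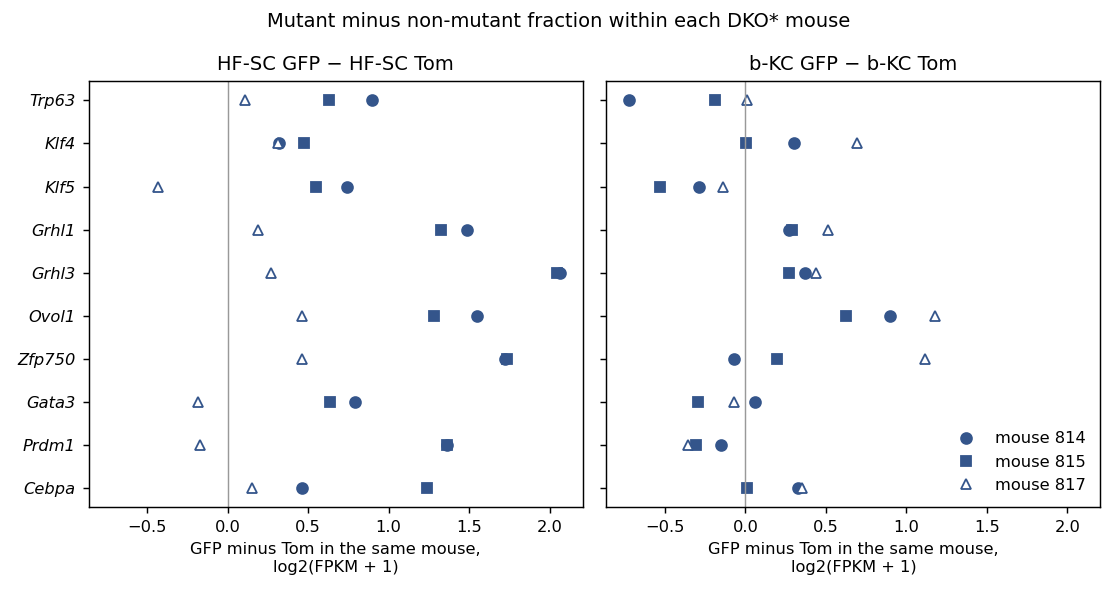
GFP minus Tom in log2(FPKM + 1) for each transcription factor within each of the 3 DKO* mice, in HF-SCs and b-KCs; circles, squares and open triangles are mice 814, 815 and 817. In HF-SCs, mice 814 and 815 lie right of 0 for all 10 genes and up to 2.07, while mouse 817 lies between -0.43 and 0.46.

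Relatives of the 10 factors and other regulators of epidermis were counted for context. In mutant and non-mutant HF-SCs 38.5% and 44.4% of all genes passed against Co, and in mutant and non-mutant b-KCs 41.6% and 45.9%, and the counts of lists below are to be read against these shares. Among 18 factors of the same families, 1 rose and 5 fell in mutant HF-SCs, 2 rose and 7 fell in non-mutant HF-SCs, 2 rose and 10 fell in mutant b-KCs and 1 rose and 11 fell in non-mutant b-KCs, with medians of -0.31, -0.39, -0.76 and -0.77. Klf9, a glucocorticoid-responsive factor, was among the most changed in all 4, at -1.502, -1.35, -1.93 and -2.38. Klf6, an immediate-early factor, fell by 1.45 in mutant HF-SCs and by 1.71 and 2.20 in mutant and non-mutant b-KCs. Cebpb, a relative of Cebpa, rose by 0.98 in HF-SC GFP (104 against 52.2 FPKM). Among 32 other epidermal regulators, 9 rose and 5 fell in mutant HF-SCs, 6 and 13 in non-mutant HF-SCs, 4 and 15 in mutant b-KCs and 4 and 17 in non-mutant b-KCs. Ehf and Elf3, ETS factors of epithelial differentiation, rose in all 4, Ehf by 4.49, 3.94, 2.27 and 2.29 and Elf3 by 3.14, 2.51, 1.27 and 1.71. The 6 and 9 of 18 relatives that passed in the HF-SC fractions, and 14 and 19 of 32 other regulators, lie near or above the shares of all genes, and a difference from the 10 factors was not tested.

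Genes of the differentiated layers were counted in the same way. Of 27 granular and cornified layer genes tested, 16 rose and 1 fell in mutant HF-SCs, 9 and 5 in non-mutant HF-SCs, 6 and 7 in mutant b-KCs and 4 and 10 in non-mutant b-KCs, with medians of 1.74, 0.35, -0.27 and -0.59. Sprr2d, a cornified envelope precursor, rose by 8.24, 7.36, 7.22 and 7.92 in the same order, while Lor, encoding loricrin, fell by 2.48 and 3.41 in mutant and non-mutant b-KCs. Of 16 spinous layer genes, 7 rose in mutant HF-SCs and 9 fell in mutant b-KCs, while 5 rose and 3 fell in non-mutant HF-SCs and 1 rose and 9 fell in non-mutant b-KCs. Krt1 and Dsc1, an early differentiation keratin and a desmosomal cadherin, rose by 2.84 and 2.45 in HF-SC GFP, and Krt10 fell by 1.56 in b-KC GFP. Of 16 basal layer genes, none passed as higher in any of the 4 populations, while 2 fell in mutant HF-SCs, 3 in non-mutant HF-SCs, 10 in mutant b-KCs and 7 in non-mutant b-KCs. Krt14 is among the 7 in b-KC Tom through 2 libraries listed at 0, and the zeros in b-KCs raise its shared standard error to 3.14 in all comparisons. In HF-SCs, where no library was at 0, Krt14 read 2085 to 2479 FPKM in Co, 4050 to 4612 in GFP and 5704 to 6787 in Tom without overlap, so its test there says little.

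Genes whose level over the 18 libraries was most like that of a factor were found by Pearson's r of log2(FPKM + 1) as a description, since the libraries share mice and groups. Ovol1 and Zfp750 were each other's closest gene among all tested (r = 0.98), and Sp6 stood among the next for both (r = 0.97 and 0.98). Grhl1 was closest to Acsl1 (r = 0.99), Prom2 (r = 0.98) and Tfap2c (r = 0.97), Grhl3 to Ceacam19 (r = 0.98), Cebpa to Tmprss4 (r = 0.98) and Gata3 to Dtx2 (r = 0.98). Klf4 was closest to Dusp1 (r = 0.96), an immediate-early phosphatase gene, and Trp63 to Med23 (r = 0.95). Prdm1 was closest to Sorcs2 (r = 0.95). Within the 10 genes the lowest values were between Gata3 and Prdm1 (r = -0.56), Klf4 and Prdm1 (r = -0.48) and Trp63 and Grhl3 (r = -0.44).

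Markers of other cells moved with some groups. The 16 endothelial genes, none at 0 throughout a group, summed to 95.2 to 156 FPKM in control bulge cells, 2.79 to 47.3 in mutant ones and 948 to 2777 in non-mutant ones, and to at most 13.2 in any b-KC library. The highest sums were those of mice 814 and 815, at 2681 and 2777. All 16 genes passed as higher in non-mutant bulge cells against both Co and GFP, Plvap and Pecam1 among them at means of 417 and 169.6 FPKM. Klf2 and Gata2, relatives of the factors above and known from endothelium, differed between the same fractions, with GFP minus Tom at -2.54 and -1.997. The part of endothelial cells in the HF-SC Tom values of the 10 factors was not tested. Myeloid and Langerhans cell genes, 12 in the table, summed to 6.93 to 16.8 FPKM in Co libraries and 163 to 1354 in DKO* libraries, nearly all of it from the class II genes Cd74, H2-Aa and H2-Ab1, while Ptprc, which encodes CD45, reached at most 0.946 FPKM. Bulge genes fell for 7 of 11 in mutant and 8 of 11 in non-mutant HF-SCs. Infundibulum and sebaceous genes rose for 4 of 10 in mutant HF-SCs, where none fell, while none rose and 1 of 10 fell in non-mutant HF-SCs, and 5 of 10 fell and 1 rose in mutant b-KCs. In non-mutant b-KCs, where 6 of the 10 factors fell, 7 of 10 infundibulum and sebaceous genes fell and none rose, with a median of -1.91, and 6 of 11 bulge genes fell. Krt79, an infundibulum keratin, read 42.7 FPKM there on average and differed from Co, at 367 FPKM, by -3.10 (adjusted p = 4.38e-05, limma). Of 5 inner root sheath and hair shaft genes tested, 1 rose in mutant HF-SCs and 3 fell and 1 rose in non-mutant ones. Of 6 fibroblast and 6 melanocyte genes tested, 0 and 3 rose in mutant HF-SCs, and 0 and 1 fell. Proliferation genes rose for 8 and 9 of 9 in mutant and non-mutant HF-SCs, and for 7 and 9 of 9 in the b-KC fractions. How far any of these cells entered the differences of the 10 factors was not tested.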

How the data were processed

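RNA (18 libraries) of sorted cells was amplified with SMART-Seq v4 and made into libraries with Nextera XT, which do not mark strand. Reads were aligned to NCBI37/mm9 with TopHat 2.0.10 and Bowtie 1.0.0, and the authors computed FPKM per gene with Cufflinks 2.2.1 and deposited 1 table for the whole series. How libraries were scaled to each other, and the read counts, are not given in the sources used here, so the authors' test could not be repeated. From the steps between low FPKM, the libraries held about 16519500 to 26259900 reads, 75.6 to 80.6% of low values lying within 0.1 of a whole read, and 3 reads on 1 kb correspond to 0.114 to 0.182 FPKM. This covers counting error only, since amplified reads are not independent molecules.

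limma 3.58.1 in R 4.3.3 fitted log2(FPKM + 1) of 12751 genes (1 FPKM or more in at least 3 of 18 libraries) to the 6 groups, with trended eBayes and two-sided tests adjusted by Benjamini-Hochberg within each comparison. Replicates are separate mice. An exact permutation test of 3 against 3 libraries cannot go below p = 0.1, so none is given. Libraries of the same mouse pair by their labels, and deviations from the group means correlated at r = 0.084 to 0.69 within mice. The fits were tested on simulated data. The 10 genes, and the lists of related factors, layers and cell types, were chosen with earlier results of these data known. Named genes are all 10, the targeted Jun and Junb, in each list and comparison up to 4 passing genes with the largest change, for each factor the 3 genes with the highest Pearson's r, and genes at 0 in a library of a high group. Pecam1, Cd34, Ptprc and Cd3 genes were added as defining markers. Alternatives were the pseudocount, the filter, 2 other scalings, only the groups compared, eBayes without trend, zeros as missing, a mouse block, a stricter rule and leaving out each mouse.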

Additional observations from a re-analysis of the deposited data

Results flagged for a closer look

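The change from Co differed between HF-SCs and b-KCs by the interaction term (limma, adjusted p under 0.05) for 6 of the 10 factors in the GFP fraction, against 12.5% of all genes (7.31% more positive in HF-SCs). On the log2(FPKM + 1) scale the difference of changes, HF-SC minus b-KC, was 1.166 for Klf5, 1.879 for Grhl1, 2.949 for Grhl3, 2.079 for Ovol1, 2.391 for Zfp750 and 1.523 for Cebpa. In the Tom fraction, where 15.8% of all genes passed (10.3% more positive), it was 1.237 for Grhl1, 1.845 for Grhl3, 1.881 for Ovol1, 1.495 for Zfp750 and 1.133 for Cebpa. Both sets use the same control libraries. The Klf5 value lost its call without mouse 810, 815, 825 or 828, and in Tom the calls of Grhl1, Grhl3, Zfp750 and Cebpa were each lost without at least 1 mouse.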

How the results depend on the processing

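Of the 90 differences of the 10 genes, 46 were called, and none of these changed sign under the 16 alternatives. Of 1380 recomputed values, 1228 stayed on their side of the threshold with their sign, 111 lost their call, 30 gained one and 11 changed sign, in 6 differences that were not called. Ovol1 in b-KC GFP against Co was -0.24 and Klf4 in HF-SC Co against b-KC Co 0.23 after quantile normalization, and Grhl3 in b-KC Tom against Co was -0.15 after it and -0.037 with rescaled libraries. With 1 mouse left out, Grhl1 in HF-SC Tom against Co ranged from -0.0623 to 0.52, Klf5 in b-KC Tom against Co from -0.13 to 0.0333, Grhl3 there from -0.16 to 0.34, and the Prdm1 difference of Tom changes from -0.90, which passed, to 0.0899. The cause was not tested. Requiring an adjusted p under 0.01 and a log2 change of at least 2 left 3 genes in HF-SC GFP and 3 in the difference of GFP changes (limma), where 3.07% and 0.863% of all genes passed, and 0 in HF-SC Tom, b-KC GFP, b-KC Tom, HF-SC GFP against Tom and the difference of Tom changes, with 4.09%, 1.87%, 2.75%, 1.98% and 1.98% of all genes. Fitting only the groups compared gave 4 in HF-SC Tom and 0 in HF-SC GFP against Tom, with 32.3% and 2.94% of all genes. The replicate block as a fixed effect gave 0 in HF-SC GFP against Tom and 1 in b-KC GFP against Tom, with 4.93% and 3.72% of all genes. That last count was also 1 with a random replicate block, a pseudocount of 0.1 and rescaled libraries, with 4.82%, 2.47% and 1.78% of all genes. Counts with 1 mouse left out, beside the shares of all genes, ranged from 5 to 9 in HF-SC GFP (25.8% to 51.5%), 4 to 7 in HF-SC Tom (31.0% to 59.4%), 1 to 7 in b-KC GFP (20.5% to 59.4%), 3 to 7 in b-KC Tom (30.0% to 57.6%), 0 to 9 in HF-SC GFP against Tom (3.33% to 22.9%) and 2 to 6 in the difference of Tom changes (7.04% to 25.4%). Quantile normalization moved the median of all genes to -0.12 in HF-SC Tom. With 3 mice a group and libraries amplified before sequencing, small differences are not resolved.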
